A study of Mus musculus with 104 samples.

Results

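Of the 45808 gene rows in the deposited count matrix, 10 were described here, picked by name: mt-Nd1, mt-Nd2, mt-Nd3, mt-Nd4, mt-Nd5, mt-Cytb, mt-Co1, mt-Co2, mt-Co3 and mt-Atp6. They are protein-coding transcripts of the mitochondrial genome, and each encodes a core subunit of a respiratory complex. Together they held 2228150 counts, 1.95% of all gene counts. The 104 libraries each hold the content of a single neuron, drawn by patch pipette from slices of mouse substantia nigra and amplified by Smart-seq2, a full-length cDNA method primed on poly(A) tails. Titles name 38 libraries experiment and 66 control, and all carry the cell type label dopaminergic neuron. The series' design text describes picking neurons of the compact part of the substantia nigra that carried α-Syn-6H-EGFP inclusions, fluorescent clumps of a tagged α-synuclein. The labels do not say what the control neurons carried, and they name no genotype, strain, age, treatment or animal for either group. Because no library is tied to an animal, each group counts as 1 sample: no test was made, and single neurons are shown as a spread, not as replicates.

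The mitochondrial genome is a small circle present in many copies per cell. Its strands are transcribed as long RNAs that are cut mostly at the transfer RNAs between genes, so neighbouring messages start out in the same transcript. Their products work in complexes I, III, IV and V of the respiratory chain beside many nuclear-encoded subunits, whereas complex II is wholly nuclear-encoded. Dopaminergic neurons of the substantia nigra pace themselves at a high energy cost, and complex I is the complex most often discussed in Parkinson disease.

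The members split into an abundant and a scarce set. The abundant set comprised 6 genes: mt-Cytb had 766452 counts over all libraries, mt-Co1 586642, mt-Nd1 367235, mt-Nd5 259859, mt-Nd4 137047 and mt-Nd2 106335, and all were counted in 104 of 104 libraries. The other 4 members, mt-Co3 with 1484 counts, mt-Nd3 with 1476, mt-Atp6 with 997 and mt-Co2 with 623, held 0.206% of the member counts between them. They had no count in 11, 15, 11 and 22 libraries, in that order. The scarce members lie side by side on the plus strand of the mitochondrial genome (GRCm38, GENCODE M21), mt-Co2 at chrM:7013-7696, mt-Atp6 at chrM:7927-8607, mt-Co3 at chrM:8607-9390 and mt-Nd3 at chrM:9459-9806. The abundant members flank them: mt-Nd1 at chrM:2751-3707, mt-Nd2 at chrM:3914-4951 and mt-Co1 at chrM:5328-6872 on one side, mt-Nd4 at chrM:10167-11544, mt-Nd5 at chrM:11742-13565 and mt-Cytb at chrM:14145-15288 on the other.

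What sets the scarce members apart in sequence is a near-exact annotated copy in the nuclear genome. Pseudogenes on the minus strand of chromosome 1 repeat a stretch of the mitochondrial genome that runs from the 3′ end of mt-Co1 into mt-Nd4. Gm28661 (chr1:24614885-24615565) matched 681 bases of mt-Co2 with 0 mismatches, Gm10925 (chr1:24613974-24614651) matched 678 bases of mt-Atp6 with 0, and Gm28437 (chr1:24613189-24613971) matched 783 bases of mt-Co3 with 0. Gm28438 (chr1:24612775-24613119) matched 345 bases of mt-Nd3 with 1 mismatch, T3C, counted from the gene's 5′ end with the member's base given before the position and the copy's after it. The stretches below show how little there is to tell member from copy, with capitals at each base that differs, all 5′ to 3′ in the sense of the gene, from GENCODE M21 transcripts. The opening of mt-Co2 (chrM:7013-7072) and of its copy are the same in every letter, and mt-Nd3 (chrM:9459-9518) differs from its copy at the single base already named.
mt-Co2: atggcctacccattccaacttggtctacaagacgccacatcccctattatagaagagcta
Gm28661: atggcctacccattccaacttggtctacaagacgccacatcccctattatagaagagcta
mt-Nd3: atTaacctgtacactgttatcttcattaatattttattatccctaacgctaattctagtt
Gm28438: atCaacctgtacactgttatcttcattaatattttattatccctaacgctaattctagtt

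Among the abundant members, mt-Co1 and mt-Nd4 are copied in part. Gm29216 matched bases 1063 to 1545 of mt-Co1 with 1 mismatch, A1066T, and Gm28439 matched bases 1 to 876 of mt-Nd4 with 0. A further copy of the whole of mt-Co1, Gm13340 on chromosome 2, differed at 37 of 1545 bases. The stretch of mt-Co1 at chrM:6390-6449 is shown beside Gm29216, and the stretch at chrM:5787-5846, where mismatches to Gm13340 are densest, beside that copy. The opening of mt-Cytb (chrM:14145-14204) is given as a contrast, since no window of this gene occurred in another annotated transcript.
mt-Co1: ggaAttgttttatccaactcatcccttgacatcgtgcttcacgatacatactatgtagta
Gm29216: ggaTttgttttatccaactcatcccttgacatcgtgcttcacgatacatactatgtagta
mt-Co1: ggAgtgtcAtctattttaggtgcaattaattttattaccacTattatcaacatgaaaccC
Gm13340: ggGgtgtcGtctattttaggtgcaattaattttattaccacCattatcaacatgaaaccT
mt-Cytb: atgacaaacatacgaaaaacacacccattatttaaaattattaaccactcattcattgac

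Sequence that belongs to a member alone was measured as the share of its 50-base windows found, on either strand, in no other annotated transcript. That share was 100% for mt-Nd1 and mt-Cytb, 92.4% for mt-Nd5, 91.8% for mt-Nd2, 48.9% for mt-Co1 and 37.8% for mt-Nd4. In the scarce members it was 2.01% for mt-Nd3, 0.475% for mt-Atp6, 0.136% for mt-Co3 and 0 of 635 windows for mt-Co2. The order of the shares thus separates the same sets as the counts. With windows of 100 bases the share of mt-Co1 was 69.2%, and no scarce member exceeded 2.41%.

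**Figure D1:**
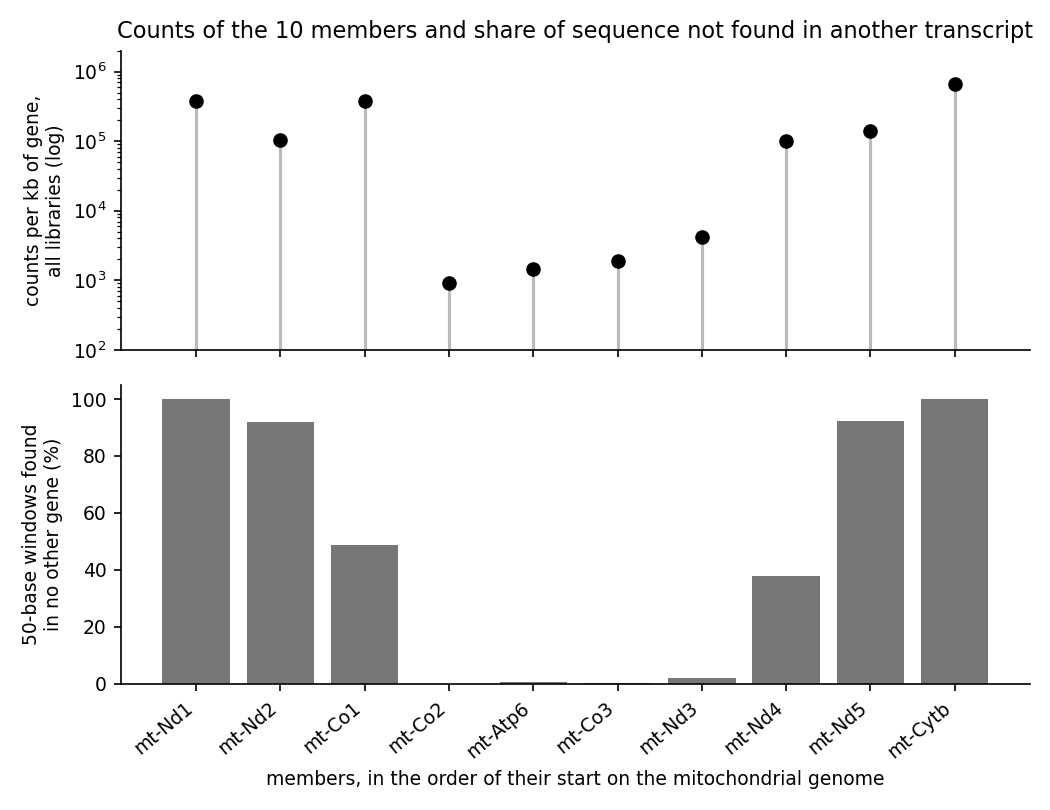
Counts per kilobase of gene over all 104 libraries (top, log axis) and the share of 50-base windows found in no other annotated gene (bottom, %), with the members in genome order. The 4 members at or below 4241 counts per kilobase are those whose share of own windows is 2.01% or less.

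Per kilobase of gene, a scale on which genes of different length can be compared, mt-Cytb led with 669976 counts over all libraries, ahead of mt-Nd1 (383736) and mt-Co1 (379704). mt-Nd5 (142467), mt-Nd2 (102442) and mt-Nd4 (99454) followed. The scarce members stood at 4241 counts per kilobase for mt-Nd3, 1893 for mt-Co3, 1464 for mt-Atp6 and 911 for mt-Co2. The spread over single neurons was wide enough that neighbours in this order overlapped: mt-Nd1 ranged over 192 to 9564 CPM per kilobase with a median of 3163, and mt-Co1 over 72.2 to 12591 with a median of 3021. mt-Nd2 and mt-Nd4, with medians of 836 and 822 CPM per kilobase, overlapped likewise. When all counts of a row were divided by the kilobases of own windows only, mt-Co1 came to 802520 and passed mt-Cytb at 699956. On that scale mt-Nd4 stood above mt-Nd5, 273002 against 158451. Any counts from shared sequence stayed in, so these values are upper limits and the order of the members on this scale is uncertain.

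The copies' own rows were counted too. Gm28661 had 839 counts, more than mt-Co2 itself, Gm10925 had 1222, more than mt-Atp6, and Gm28437 had 1340, close to the 1484 of mt-Co3. For sequences that match without a mismatch, member and copy cannot be told apart from such reads, so the levels of mt-Co2, mt-Atp6, mt-Co3 and mt-Nd3 are uncertain throughout. Member and copy also moved together from neuron to neuron, with a Spearman correlation of CPM over the 104 libraries of 0.83 for mt-Co3 and Gm28437, 0.79 for mt-Co2 and Gm28661 and 0.78 for mt-Atp6 and Gm10925. These correlations are a description: the points share library and depth. For mt-Nd3 and Gm28438, which had 33 counts in all, the value was 0.28. Nothing in the labels says what the counting step did with reads that fit several places, and its part in the low counts was not tested.

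Other genes of the mitochondrial genome lie in the same stretch. mt-Nd4l, a complex I subunit beside mt-Nd3, had 107 counts and an identical 294-base copy, Gm10222, with 94. mt-Atp8, an ATP synthase subunit whose 3′ end overlaps mt-Atp6, had 123 counts although 100% of its windows were its own among annotated transcripts. The copies of its neighbours end at base 24614651 and resume at base 24614885 of chromosome 1, and the sequence between them is in no annotated transcript and was not used here. mt-Nd6, a complex I subunit on the minus strand, had 58484 counts, and the ribosomal RNAs mt-Rnr1 and mt-Rnr2 had 363365 and 1323617. Short overlaps join mt-Atp8 to mt-Atp6, mt-Atp6 to mt-Co3, mt-Nd4l to mt-Nd4 and, on opposite strands, mt-Nd5 to mt-Nd6. Without a stated strand setting reads of mt-Nd6 cannot be told apart from antisense reads.

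Gene counts ranged over 116567 to 3094036 with a median of 960027 in experiment, and over 153770 to 2577694 with a median of 1039851 in control. For the dopaminergic label, Th, Slc6a3, Slc18a2 and Ddc, the enzyme and transporter genes of dopamine neurons, were looked at. Each had a count in all 104 libraries, which does not settle the identity of a neuron. The summed CPM of these 4 was lower in experiment, with a median of 15394 (549.7 to 22715) against 20379 (1857 to 33736). All 4 were lower by both measures used below. The lowest library, Experiment27, had 18348 CPM of summed astrocyte, microglial and oligodendrocyte markers. Markers of other cells differed as well: of the astrocyte list 9 of 12 passed the filter on low values and 9 were higher in experiment (summed CPM 23.3 to 11177 against 109 to 2728), of the microglial list 5 of 6 that passed (0 to 3387 against 0 to 2983), of the oligodendrocyte list 5 of 6 (0 to 9925 against 38.7 to 9709) and of the GABAergic list 4 of 4 (0 to 1750.3 against 0 to 1038). No endothelial marker passed, their summed CPM stayed between 0 and 28.8, and Cldn5, alone among the markers, had no count. Of all genes that passed the filter, 40.9% were higher in experiment by both measures. The part of these markers in the member results was not tested, apart from the values without glia-rich libraries given further on.

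Libraries were also read in 4 record blocks, runs of titles in the order of the records, which the labels do not call batches. Block 1 held 17 experiment and 35 control libraries, block 2 held 7 and 10, block 3 held 1 and 14, and block 4 held 13 and 7. Because the member share differed between blocks, the ratios of the members are given within them, in the text or in the plot of ratios by block, and those of the named nuclear mitochondrial genes where a block reverses them. Library size was not similar within every block: in block 4 the median gene counts were 891184 in experiment and 411289 in control. Experiment libraries had counts in fewer genes, a median of 7353.5 against 8548 over all libraries, 7391 against 9374 in block 1, 5198 against 8017 in block 2 and 7677 against 8500.0 in block 4. Of the marker lists with expressed genes, only the GABAergic kept its direction in every block. Median log2 ratios in blocks 1 to 4 were -0.54, 0.42, -1.63 and -0.68 for dopaminergic markers. They were 1.38, -0.20, -0.82 and 3.45 for astrocyte and 0.88, 2.14, -1.64 and 2.26 for microglial markers. For oligodendrocyte markers they were -1.91, 0.56, -3.08 and 3.70, and for GABAergic markers 2.30, 0.84, 1.10 and 3.34. The part of these differences in the member results was not tested.

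Mitochondrial transcripts took a larger share of the counts in experiment neurons. The 10 members summed to between 0.324% and 5.44% of a library's gene counts in experiment, with a median of 2.39%, and to between 0.119% and 4.24% in control, with a median of 1.38%. The groups overlapped widely: 30 of 38 experiment libraries lay above the control median, 3 lay above the highest control, and 6 controls lay below the lowest experiment library. Pooled over libraries the sum was 23856 CPM against 17081, a ratio of 1.40 (95% interval 1.39 to 1.40, exact binomial). This interval, like all those on ratios below, covers the counting error of pooled reads only, and the reads carry no molecular identifiers. It leaves out the spread between neurons, which is far wider. With every library weighted equally the log2 ratio was 0.53, against 0.48 pooled.

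**Figure D2:**
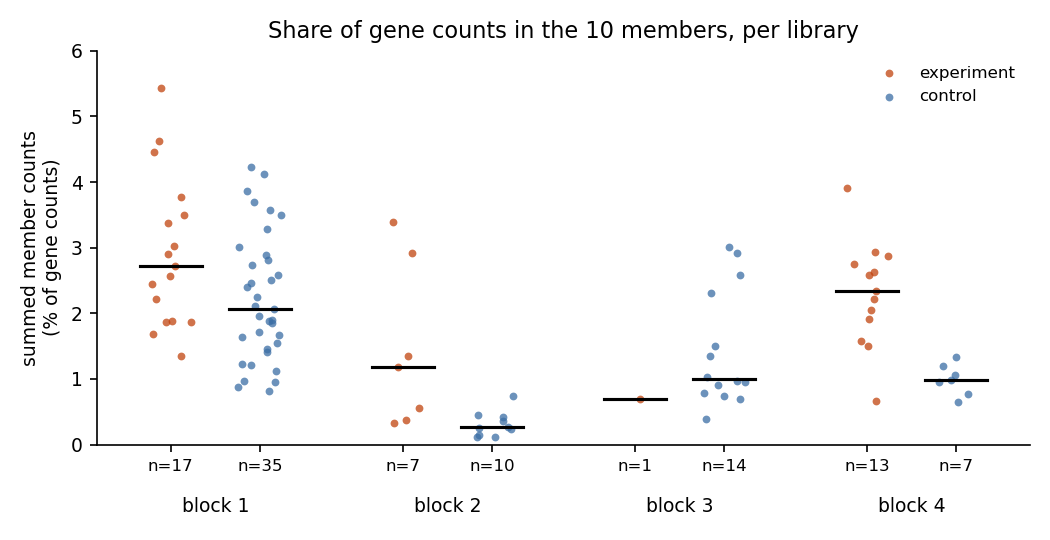
Summed counts of the 10 members as a share of each library's gene counts (%), one point per library, by record block and group, with bars at the medians and n under each column. Experiment medians are above control medians in blocks 1, 2 and 4, and the single experiment library of block 3 is below that block's control median.

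Within blocks the size of the difference varied. In block 1 the median share was 2.72% in experiment and 2.07% in control, and 12 of 17 experiment libraries lay above the control median. In block 2 it was 1.18% against 0.265%, and in block 4 2.34% against 0.981%, where 12 of 13 experiment libraries exceeded the highest control. The 1 experiment library of block 3 stood at 0.694%, under the median of 0.994% in the controls of that block. The pooled log2 ratios of the sum were 0.44 in block 1, 2.42 in block 2, -1.08 in block 3 and 1.18 in block 4. Block 2 combined the lowest control shares of the series with experiment libraries of up to 3.39%, so its ratio is the largest of the blocks and rests on few neurons. Without block 2 the log2 ratio of the sum over the rest was 0.39.

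All 10 members were higher in experiment on either measure, pooled CPM and mean library CPM, a direction shared by 40.9% of the 9113 expressed genes (pooled CPM of at least 10 and a count in 25% or more of a group's libraries). Of the members, 8 passed that filter, and mt-Co2 and mt-Atp6 did not. Of the members 4, mt-Nd1, mt-Nd2, mt-Nd3 and mt-Nd4, were at least 1.5-fold higher by both measures, against 7.77% of expressed genes. All 4 encode subunits of complex I, as do 5 of the 10 members, and within blocks the order of the complexes differed, as given further on. Without block 2, a setting chosen after seeing the data, 2 members were at least 1.5-fold higher. The median log2 ratio of the members was 0.50 pooled, beside -0.03 over all expressed genes.

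Complex I is the entry point for electrons from NADH, and its mitochondrial-encoded subunits form the proton-pumping membrane arm. mt-Nd1, the subunit next to the ubiquinone site, spanned 487 to 9152 CPM with a median of 4358 in experiment and 184 to 6306 with a median of 2106 in control. In 32 of 38 experiment libraries it was above the control median, and 5 exceeded every control. Its pooled ratio was 1.59 (1.58 to 1.60), and within blocks 1, 2 and 4 the ratios were 1.56, 6.46 and 2.27.

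mt-Nd2, mt-Nd4 and mt-Nd5 encode the antiporter-like pump subunits of that arm. mt-Nd2 spanned 137 to 3444 CPM with a median of 1232 in experiment and 139 to 2344 with a median of 597 in control. The lowest library of each group was level, while the lower quartiles were 883 and 378 and the upper quartiles 1647 and 1020.0. mt-Nd4 spanned 171 to 2807 CPM with a median of 1675 in experiment and 52.9 to 2388 with a median of 864 in control. mt-Nd5 spanned 114 to 5701 CPM with a median of 3183 in experiment and 49.98 to 4241 with a median of 1660.3 in control. For each of the 3, between 31 and 33 experiment libraries lay above the control median, and 3, 5 and 6 of them above all controls. The pooled ratios were 1.67 (1.65 to 1.69) for mt-Nd2, 1.59 (1.57 to 1.60) for mt-Nd4 and 1.46 (1.45 to 1.47) for mt-Nd5. By equal weights mt-Nd5 also passed 1.5-fold, at 1.56.

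mt-Nd3, a small subunit of complex I with a loop near the ubiquinone site, had the largest pooled ratio, 2.49 (2.24 to 2.76), from 846 counts in experiment and 630 in control. It was seen in 32 of 38 experiment and 57 of 66 control libraries, at 0 to 103 CPM with a median of 20.8 and 0 to 145 CPM with a median of 7.82. Experiment libraries were mostly higher, 27 of 38 above the control median, yet the highest value of all was a control. A single experiment library supplied 14.3% of that group's counts. In block 2 the median was 0 in experiment and 1.10 CPM in control, so the ratio there, 1.84, rests on a few libraries.

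mt-Cytb, the only mitochondrial-encoded subunit of complex III and the carrier of its haem b groups, was the most abundant member and, pooled over all libraries, the one with the smallest ratio among the abundant ones. It spanned 1364 to 18451 CPM with a median of 6408 in experiment and 301 to 20771 CPM with a median of 4071 in control. No experiment library exceeded the highest control, and 29 of 38 were above the control median. The pooled ratio was 1.25 (1.24 to 1.25). Within blocks this order did not hold throughout. In block 1 the ratio was 1.17, with 9 of 17 experiment libraries above the control median, and mt-Cytb was the lowest of the abundant members. In block 2 it was 5.10, with 7 of 7 above. In block 4 it was 2.46, with 12 of 13 above, the highest of the abundant members there, next to mt-Nd5 at 2.30. In block 3 it was 0.403.

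Complex IV passes electrons to oxygen. mt-Co1 encodes its catalytic subunit with the haem and copper centre and spanned 467 to 19453 CPM with a median of 5709.9 in experiment and 111 to 12191 with a median of 3901 in control. Its pooled ratio was 1.37 (1.36 to 1.38), with 28 of 38 experiment libraries above the control median and 3 above every control. mt-Co2, the subunit that receives electrons from cytochrome c, reached 18.2 CPM at most in experiment (median 5.99) and 13.8 in control (median 3.63), a pooled ratio of 1.31 (1.11 to 1.54). mt-Co3, a further core subunit, had medians of 10.5 and 8.87 CPM and a ratio of 1.10 (0.985 to 1.22), the only interval among the members that reached 1. The complex V member, mt-Atp6, encodes the subunit that lines the proton path of ATP synthase. Its medians were 8.39 and 6.34 CPM, with a ratio of 1.23 (1.08 to 1.40).

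The ratios of mt-Co2, mt-Co3, mt-Atp6 and mt-Nd3 are those of rows with a near-exact nuclear copy. The copies' rows gave almost the same ratios: 1.30 for Gm28661, 1.10 for Gm28437, 1.22 for Gm10925 and 2.51 for Gm28438, the last from 33 counts. Adding the copies' counts to their members left all 10 members higher and the same number, 4, at least 1.5-fold higher.

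**Figure D3:**
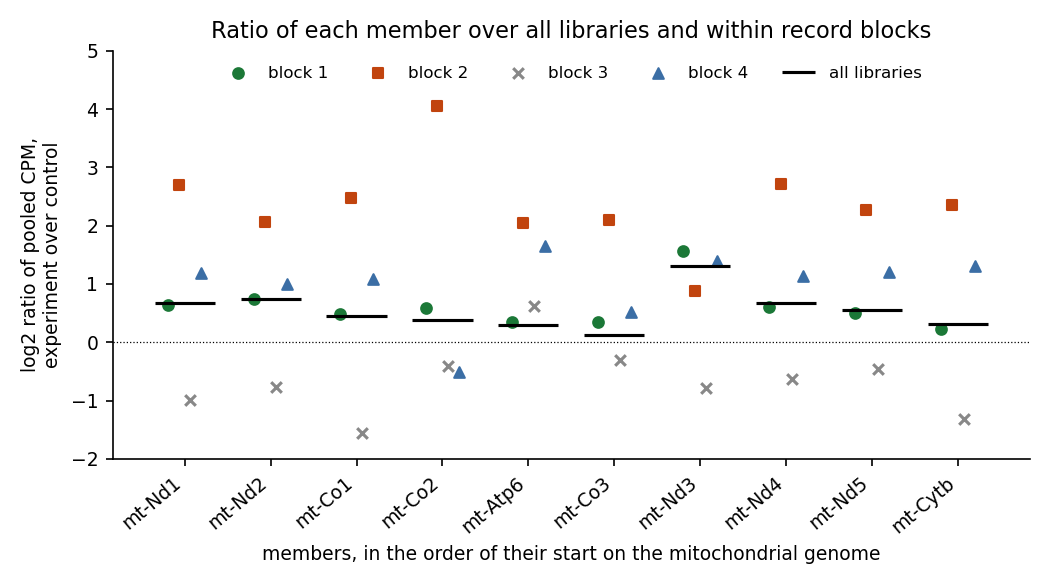
Log2 ratio of pooled CPM, experiment over control, for each member in genome order, over all libraries (bars) and within each record block (symbols). Block 2 symbols lie highest for 9 of the 10 members, block 1 symbols lie close to the bars, and block 3, with 1 experiment library, lies below 0 for 9 members.

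Read by block and by pooled CPM, the members were higher in experiment in blocks 1, 2 and 4, except mt-Co2 in block 4. By the same measure they were lower in block 3, except mt-Atp6. In block 1 all 10 were higher in experiment by pooled CPM, beside 48.4% of expressed genes, with log2 ratios between 0.23 for mt-Cytb and 1.57 for mt-Nd3. In block 2 all 10 were higher, beside 45.3% of expressed genes, between 0.88 for mt-Nd3 and 4.05 for mt-Co2, the latter from 38 counts against 3. In block 4 it was 9 of 10, beside 45.9%, with mt-Co2 at -0.52 from 24 counts against 10. By equal weights mt-Co2 stood at 0.21 there, while its experiment median, 1.73 CPM, was under the control median of 2.51. In block 3 only mt-Atp6 had a higher pooled CPM, from 5 counts in the single experiment library, beside 37.7% of expressed genes. That library also lay just above the block's control median for mt-Nd5 (1321 against 1286 CPM), mt-Nd3 (7.77 against 7.14) and mt-Co2 (1.30 against 1.25). The mt-Co2 value was 1 count. For the remaining members the library lay below the control median. Pooled ratios of at least 1.5-fold were reached by 5, 10, 1 and 8 members in blocks 1 to 4, beside 16.8%, 24.1%, 26.8% and 22.2% of expressed genes. The members with a higher pooled CPM in blocks 1, 2 and 4 alike were 9, all but mt-Co2, and 12.2% of expressed genes met that description.

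The mixture among the members was steadier than their sum. mt-Cytb made up a median of 30.0% of the member counts in experiment and 34.0% in control, and mt-Co1 26.4% and 26.7%. The direction for mt-Cytb differed by block: its median share was lower in experiment in block 1 (28.3% against 32.7%) and block 3 (32.1% in the single library against 35.95%), and higher in block 2 (42.1% against 40.4%) and block 4 (28.8% against 24.003%). mt-Nd1 held 17.4% and 16.05%, mt-Nd5 13.5% and 12.3%, mt-Nd4 6.96% and 6.33% and mt-Nd2 5.09% and 5.20%. Neurons differed far more among themselves than the groups did: the mt-Cytb share ran from 19.4% to 57.9% in experiment and from 16.7% to 54.6% in control. mt-Cytb was the leading member in 70 libraries, mt-Co1 in 32 and mt-Nd1 in 2, both of them controls. Block 2 stood apart in its mixture in both groups, with mt-Co1 at a median of 14.9% in experiment and 17.5% in control and mt-Cytb above 40% in both.

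**Figure D4:**
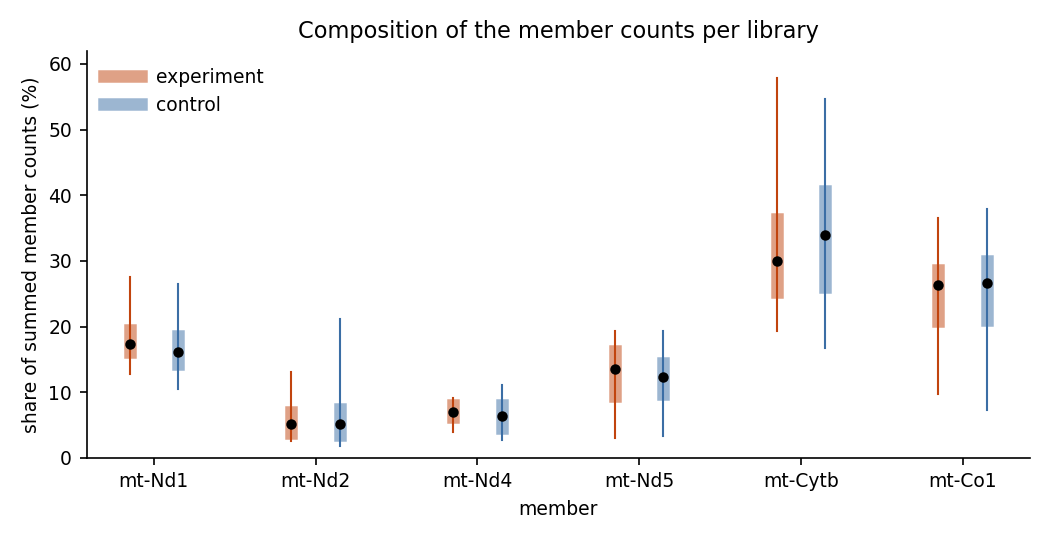
Share of each abundant member in a library's summed member counts (%), for experiment (38 libraries) and control (66 libraries): points are medians, thick bars quartiles and thin lines the full range. The ranges overlap for every member, and the mt-Cytb medians are 30.0% and 34.0%.

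Across the 104 libraries the abundant members followed each other. Spearman correlations of log2(CPM + 1) between pairs of them had a median of 0.83 over 15 pairs. They ran from 0.64 for mt-Nd2 and mt-Co1 to 0.93 for mt-Nd4 and mt-Nd5, and both of these pairs are neighbours among the members. Among the 4 scarce members the range was 0.29 to 0.77, and between the sets it was 0.26 to 0.77. These values include differences between groups and blocks. With the median of each group and block subtracted, mt-Nd2 and mt-Co1 stood at 0.42 and mt-Nd4 and mt-Nd5 at 0.85. The lowest and highest pairs between the sets, mt-Nd3 with mt-Cytb and mt-Co1 with mt-Co3, then stood at 0.05 and 0.62. All points share a denominator and a library, and scarce members are limited by counting noise, so these are descriptions. The summed member share followed the share of mitochondrial ribosomal RNA with a Spearman value of 0.65. The ribosomal RNAs themselves were higher in experiment, with a pooled ratio of 1.44 for their sum and of 1.41, 2.26, 0.461 and 2.10 in blocks 1 to 4. mt-Nd6 had a ratio of 1.48, and of 1.31, 3.81, 1.36 and 1.81 in the blocks.

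Outside the mitochondrial genome, the genes most like the members were mostly their own copies. Among 3770 genes counted in at least 80% of libraries, the Spearman correlation with the summed member CPM, after subtracting the median of each group and block, was highest for Gm28437 (0.71), Gm10925 (0.55), Gm29216 (0.45) and Gm28661 (0.44). These 4 are the pseudogenes whose sequences match mt-Co3, mt-Atp6, mt-Co1 and mt-Co2. Next came Lrp1, a large endocytic receptor, at 0.42. The 99th percentile of the candidates was 0.28.

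Nuclear-encoded subunits of the same complexes differed less between the groups. Of 76 expressed subunit genes, 56 were higher and 9 lower in experiment by both measures, with a median log2 ratio of 0.21. Of all expressed genes 40.9% were higher by both. None of the 76 was 1.5-fold higher or lower by both, against 7.77% and 11.0% of all expressed genes. Set beside the members, complex I had a median of 0.22 over 37 nuclear genes and 0.67 over 5 members, complex III 0.19 over 9 and 0.32 for mt-Cytb, complex IV 0.22 over 10 and 0.39 over 3, and complex V 0.18 over 16 and 0.30 for mt-Atp6. Among the members, the complex IV value is that of mt-Co2. mt-Co2 and mt-Atp6 did not pass the filter on low values that the nuclear genes passed, and their levels are uncertain. mt-Co1, the abundant member of complex IV, stood at 0.45. Complex II, which has no mitochondrial-encoded subunit, had a median of 0.18 over 4 genes. Within blocks 1, 2 and 4 the medians of these 5 nuclear lists lay between 0.06 and 0.57. The order of the members, with complex I highest, is that of all libraries. In block 2 mt-Cytb (2.35) and mt-Co1 (2.47) stood above mt-Nd2 (2.06), mt-Nd3 (0.88) and mt-Nd5 (2.28). They stood below mt-Nd1 (2.69) and mt-Nd4 (2.71). In block 4 mt-Cytb (1.30) stood above the complex I members other than mt-Nd3 (1.40). The subunit genes farthest from level by both measures included Ndufb9 of complex I, with a ratio of 1.45 (1.42 to 1.49), and Atp5g2, a ring subunit of ATP synthase, with 1.58 pooled and 1.46 by equal weights. Ndufs1, the iron-sulphur subunit that takes part in NADH oxidation, was lower, at 0.697 (0.675 to 0.721), and so was Ndufb11, at 0.782 (0.753 to 0.812). Uqcrq of complex III stood at 1.32, Cox5b of complex IV at 1.34 and Sdhb of complex II at 1.27. These genes kept their direction within blocks 1, 2 and 4, except Ndufb11, with a log2 ratio of 0.32 in block 4, and in block 3, with 1 experiment library, Atp5g2 and Cox5b were lower, at -1.77 and -0.25.

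From neuron to neuron the member share ranged more widely than the summed nuclear subunit genes. The summed CPM of the nuclear subunit genes spanned a 2.80-fold range over the 104 libraries, and the member share a 45.8-fold range. The Spearman correlation between them was 0.15, with -0.11 within experiment and 0.20 within control. Both ranges cross groups and blocks. Within experiment they were 2.34-fold and 16.8-fold, and within control 2.71-fold and 35.7-fold. In block 1 the member share ran from 1.34% to 5.44% in experiment and from 0.822% to 4.24% in control. The lowest share of the series, 0.119%, was a control of block 2. No nuclear range is given within blocks. The nuclear sum covers 76 genes and the member sum 10, so the ranges are not like for like.

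Genes that act on mitochondrial DNA and RNA showed no common direction. Of 30 expressed genes for mitochondrial transcription, RNA processing and translation, 11 were higher and 11 lower by both measures, with 5 past 1.5-fold each way. Of all expressed genes 40.9% were higher by both, 7.77% were at least 1.5-fold higher and 11.0% at least 1.5-fold lower. Mterf3, a regulator of mitochondrial transcription, had a ratio of 1.70 (1.59 to 1.83), with medians of 31.2 CPM in experiment and 11.5 in control. Fastkd3, an RNA-binding protein of the organelle, had a ratio of 2.31, Mterf4, a partner in ribosome assembly, 2.12, and Mtif3, an initiation factor, 0.563, but the medians of all 3 were 0 in both groups. Of 13 expressed genes of mitochondrial DNA maintenance, 4 were higher and 8 lower: the single-strand binding protein gene Ssbp1 had a ratio of 1.61, the nuclease genes Mgme1 and Exog 3.04 and 0.579, and the RNA-DNA hybrid nuclease gene Rnaseh1 0.306. Of 6 expressed regulators of mitochondrial biogenesis, Ppargc1a had a ratio of 1.46 and Ppargc1b 2.40, whereas Nrf1 had 0.574 and Esrrg 0.610. These regulators were patchy: 42.8% of the Ppargc1b counts in experiment came from 1 library, and for Esrrg it was 48.3%. Block 4 reversed several of these ratios, with log2 values of -1.50 for Mterf4, 0.29 for Mtif3, -0.91 for Mgme1, -1.13 for Ppargc1b, 0.96 for Nrf1 and 1.92 for Esrrg. Block 2 reversed Fastkd3, at -3.67. In block 3, Mterf3, Ppargc1a and Ppargc1b were lower, at -2.93, -3.32 and -2.10, and Esrrg was higher, at 1.96. Only Ssbp1, Rnaseh1 and Exog among these named genes had the same direction in all 4 blocks.

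A spike-in of ERCC RNAs was present in the lysis buffer, and it gives another denominator for the members. ERCC reads took a median of 0.421% of a library in experiment and 0.251% in control. Per ERCC count, the members were level, with a median of 4.88 member counts (0.542 to 39.7) in experiment and 5.00 (0.350 to 52.3) in control. Genes outside the mitochondrial genome were not, at a median of 226 counts per ERCC count in experiment and 385 in control. On this scale the log2 ratio of the member sum was 0.02, 7 of 10 members were above 0, and the median of all expressed genes was -0.47. With library sizes scaled by edgeR's TMM factors the median of all expressed genes was -0.10 and all 10 members stayed above 0. Relative to the median of all expressed genes the member sum was higher on each of these scales, while the group medians of members per ERCC count differed by less than the spread of the libraries.

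**Figure D5:**
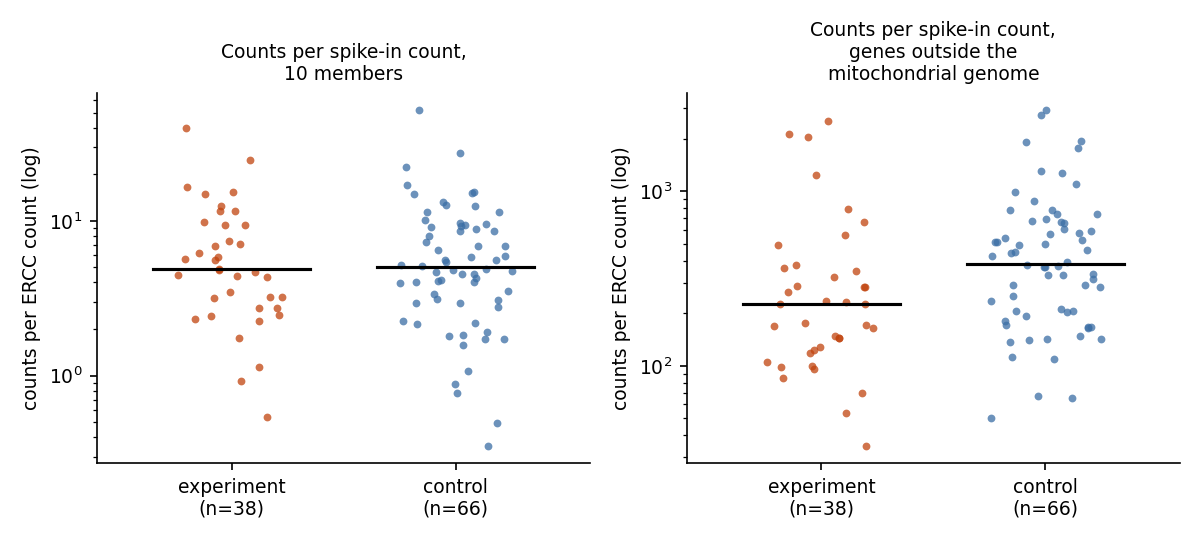
Counts per ERCC spike-in count in each library (log axes), for the 10 members summed (left) and for genes outside the mitochondrial genome (right), with bars at the medians. Member medians are 4.88 in experiment and 5.00 in control, and the medians of the other genes are 226 and 385.

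Per ERCC count the blocks did not point 1 way. The median of members per ERCC count was 4.92 in experiment and 6.86 in control in block 1, 3.21 and 1.82 in block 2, and 7.09 and 5.84 in block 4. The single experiment library of block 3 stood at 14.9 beside a control median of 4.42, and it had an ERCC share of 0.0465%, below every control of its block. For genes outside the mitochondrial genome the experiment median was lower in blocks 1, 2 and 4, at 165 against 334, 227 against 599.9 and 284 against 879. In block 3 it was the other way, 2122 in the single experiment library against a control median of 390.0.

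Libraries with a higher ERCC share had a higher member share within each group, with a Spearman correlation of 0.47 in experiment, 0.44 in control and 0.49 over all libraries. Of libraries at or below the overall median ERCC share of 0.304%, 12 experiment neurons had a median member share of 1.88% and 40 controls 0.973%. Above it, 26 experiment neurons had 2.80% and 26 controls 2.21%. In the lower set the pooled log2 ratio of the sum was -0.04 although the experiment median was higher, and 5 of 10 members were higher by both measures. That set mixes blocks unevenly, with 3 experiment and 18 control libraries of block 1, where the medians were 1.88% and 1.78%, and 6 of each group of block 4, where they were 2.12% and 0.964%. How much of the group difference goes with the ERCC share was not tested.

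Other library measures moved less with the member share. Over all libraries its Spearman correlation was 0.07 with gene counts, -0.15 with the number of genes counted, 0.12 with the summed dopaminergic markers and 0.05 with the summed glial markers. Within experiment and control the value for dopaminergic markers was larger, 0.17 and 0.30. The others were 0.14 and 0.09 for gene counts, 0.08 and -0.04 for genes counted and 0.04 and -0.01 for glial markers. Median glial CPM was 2163 in experiment and 1410 in control. Without the highest 20% of libraries in glial markers, which left 25 experiment and 58 control libraries, the log2 ratio of the member sum was 0.59, larger than with them.

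Transcript length did not order the members, with a Spearman value of 0.04 between length and log2 ratio over the 10. Among 8775 expressed nuclear genes with an annotated length the value was -0.10, and the median log2 ratio went from 0.23 in 16 genes of at most 500 bases to -0.11 in genes over 8000 bases. Members of 681 to 1824 bases had log2 ratios of 0.13 to 0.74, and expressed nuclear genes above 500 and up to 2000 bases had medians of 0.15 and 0.06 in their length bins. The shortest member, mt-Nd3 with 348 bases, had the largest log2 ratio, 1.31, beside the 0.23 of the nuclear genes of at most 500 bases.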

How the data were processed

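RNA of single neurons was measured in 104 libraries. The authors deposited 1 matrix of counts, whole reads per gene symbol, with 92 ERCC rows that were kept out of library totals. The submitters' processing notes name mm10, STAR 2.5.3a and featureCounts 1.5.3. Annotation, strand setting, read length and the handling of multiply fitting reads: not given in the sources used here.

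CPM are counts scaled to a common library total. Pooled CPM divides summed counts of a group by its summed totals and has exact Poisson error, and ratios carry exact binomial 95% intervals. A sum of 0 was raised to 3 counts. Libraries needed 50000 gene counts and 1000 genes, and 0 were left out. None of 5356 library pairs had identical counts. Groups and title numbers come from the titles. Python 3.11.15, SciPy 1.17.1, Biopython 1.88 and edgeR 4.0.16 were used, and ratios were checked on simulated data. GENCODE M21 gave positions and transcripts, with 91.6% of symbols matched. Only transcripts, not the genome, were searched for copies.

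The members, the gene lists and the rule for named genes were chosen with earlier results of these data known. Named were all members, the other mitochondrial genes, up to 4 genes per list with the largest log2 ratio by both measures, and the 5 genes most like the member sum. Not every gene so chosen is printed. Alternatives covered weighting, pseudocount, denominator, depth, ERCC share, single libraries, glial markers, record blocks and nuclear copies.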

Additional observations from a re-analysis of the deposited data

How the results depend on the processing

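The log2 ratio of the member sum, 0.48 pooled, was 0.53 with equal weights, 0.71 as mean log2(CPM + 1) and 0.71 as mean log2(CPM + 10), scales on which the median of all expressed genes also shifts (to -0.38 with a pseudocount of 1). It was 0.50 over counts outside the mitochondrial genome, 0.42 with TMM library sizes, 0.025 per ERCC count and -0.045 in the libraries at or below the median ERCC share. It was 0.47 without the highest library of each group and 0.59 when libraries highest in glial markers were left out. It was 0.44, 2.42, -1.08 and 1.18 within record blocks 1 to 4, and 1.35 as the mean of blocks 1, 2 and 4. Chosen after seeing the data, it was 0.39 without block 2, 0.47 without block 3 and 0.59 for the 4 scarce members alone. The count of members at least 1.5-fold higher by both measures, 4, was 8 and 7 as mean log2 with pseudocounts of 1 and 10, 1 per ERCC count, 1 at low ERCC share, 9 in block 2, 1 in block 3, 8 in block 4, 10 as the mean of blocks and 2 without block 2. The count of members higher, 10, was 7 per ERCC count, 5 at low ERCC share, 1 in block 3, 9 in block 4 and 10 under the other alternatives. The 18 alternatives reuse the same libraries in whole or in part and are not independent. Over them, 162 of 180 member log2 ratios were above 0. Of the 18 below 0, those outside block 3 were per ERCC count, at low ERCC share or mt-Co2 in block 4, and 9 were in block 3. There mt-Nd1, mt-Nd2, mt-Nd3 and mt-Nd4 stood at -0.99, -0.77, -0.78 and -0.63, and mt-Nd2 was -0.043 per ERCC count. The ratio of mt-Cytb to mt-Co1 in counts per kilobase, 1.76, was 0.872 with all counts divided by kilobases of own windows, since only part of mt-Co1 is its own. Apart from that, the cause of each shift was not tested. No paired analysis was possible because single neurons carry title numbers that only name a library, and no result comes from a test. Depth limits the scarce members most: mt-Co2 had a count in 82 of 104 libraries.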
